A study of Mus musculus with 12 samples.

Results

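The Toll-like receptors and their adaptor Myd88 were followed through muscle regeneration as 10 genes, taken by symbol from the 28116 genes measured. The members are 4 receptors of the cell surface (Tlr1, Tlr2, Tlr4 and Tlr6), 5 receptors of the endosome (Tlr3, Tlr7, Tlr8, Tlr9 and Tlr13) and Myd88. The samples were tibialis anterior muscles of 4-month-old mdx mice (C57BL/10ScSn-Dmdmdx/J), which carry a mutation in the dystrophin gene Dmd and serve as a model of Duchenne muscular dystrophy. Every muscle, controls included, had received cardiotoxin, a snake venom toxin that kills muscle fibres and starts regeneration. With it came either an inhibitor of the microRNA miR-106b, named anti-miR-106b, or a scrambled anti-miR. Muscles were taken on day 3 or day 7, which gave 4 groups of 3 animals and 12 libraries: day 7 with anti-miR-106b, day 7 with scrambled, day 3 with anti-miR-106b and day 3 with scrambled. There was no uninjured muscle and no strain with intact Dmd among them, and RNA came from the muscle without any sorting of cells. The level of miR-106b itself was not analysed here. In such bulk samples, fewer cells of a type and less RNA per cell cannot be told apart. The labels give 3 animals per group but not whether 1 animal gave muscles to more than 1 group, so the libraries were treated as independent.

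Toll-like receptors recognise conserved molecules of microbes and material released by dying cells. Tlr2 pairs with Tlr1 or Tlr6 at the cell surface to bind lipopeptides, and Tlr4 binds bacterial lipopolysaccharide with Ly96 and Cd14. The endosomal receptors bind nucleic acids: Tlr3 double-stranded RNA, Tlr7 single-stranded RNA, Tlr9 DNA with unmethylated CpG and Tlr13 bacterial ribosomal RNA, while Tlr8 is a relative of Tlr7 whose RNA sensing is best known in humans. All of them except Tlr3 signal through Myd88, as do receptors of the interleukin-1 family, and Tlr3 uses the adaptor Ticam1. In muscle these genes are mainly known from the macrophages that enter after injury, with Tlr4 and Myd88 also made by fibres and other resident cells.

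The sequence of the inhibited microRNA is shown because its seed (bases 2 to 8, in capitals) sets which transcripts it can pair with. It lies at chr5:138165787-138165807 on the minus strand (RefSeq, GRCm38.p6).

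miR-106b-5p: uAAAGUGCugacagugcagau

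None of the 10 members had a match to this seed in the longest 3′ UTR that GENCODE M21 annotates for it. The search took the letters GCACTTTA (the seed complement followed by A) and its shorter forms down to the 6 bases CACTTT. Among the 12931 tested genes with an annotated 3′ UTR, 4.45% held the 8-base match and 43.2% at least the 6-base one. The members' UTRs ran from 58 bases in Tlr8 to 1496 bases in Tlr3, and sites in the coding sequence were not searched.

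RefSeq promoter windows were at hand for 8 of the 10 members. The 250 bases before the annotated start are shown for 4 of them, chosen after their values were seen: Tlr13 and Tlr9, which fell steeply between the days, and Tlr3 and Myd88, which fell less. Capitals mark matches to 3 motifs searched on both strands: the PU.1 core GAGGAA in Tlr13 and Tlr9, the interferon regulatory factor element (GAAA, any 2 bases, GAAA) in Myd88 and the NF-kB element (GGG, any 2 bases, TTTCC) in Tlr3. The coordinates (GRCm38.p6) are chrX:106143025-106143274 on the plus strand for Tlr13, chr9:106222348-106222597 on the plus strand for Tlr9, chr8:45410381-45410630 on the minus strand for Tlr3 and chr9:119340019-119340268 on the minus strand for Myd88. The Tlr3 and Myd88 windows, and the end of the Tlr13 window, lie inside the span that GENCODE gives to each gene.

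Tlr13: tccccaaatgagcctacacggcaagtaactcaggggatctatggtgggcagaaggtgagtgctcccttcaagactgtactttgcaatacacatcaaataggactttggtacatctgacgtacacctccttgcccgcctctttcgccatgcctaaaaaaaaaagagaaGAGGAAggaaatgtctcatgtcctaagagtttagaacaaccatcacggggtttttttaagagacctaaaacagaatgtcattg

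Tlr9: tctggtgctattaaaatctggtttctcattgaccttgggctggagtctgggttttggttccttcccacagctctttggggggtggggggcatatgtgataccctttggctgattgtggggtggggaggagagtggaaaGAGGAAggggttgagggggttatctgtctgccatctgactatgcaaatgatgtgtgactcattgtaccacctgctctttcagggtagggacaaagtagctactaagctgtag

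Tlr3: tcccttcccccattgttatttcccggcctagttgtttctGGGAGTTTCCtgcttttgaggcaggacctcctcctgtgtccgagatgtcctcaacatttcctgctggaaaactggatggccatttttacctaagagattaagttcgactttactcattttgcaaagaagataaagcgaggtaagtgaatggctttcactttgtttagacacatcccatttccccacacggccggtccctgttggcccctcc

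Myd88: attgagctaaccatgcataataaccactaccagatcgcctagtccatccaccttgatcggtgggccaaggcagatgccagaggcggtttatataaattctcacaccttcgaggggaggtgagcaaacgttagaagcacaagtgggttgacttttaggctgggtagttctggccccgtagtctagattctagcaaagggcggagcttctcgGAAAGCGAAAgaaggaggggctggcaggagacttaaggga

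The PU.1 core, the binding motif of a myeloid transcription factor, began 83 bases before the start in Tlr13 and 112 bases before it in Tlr9. It also occurred in 1 of the 2 windows of Tlr1 and in the window of Tlr8. Tlr9 had another match at position 13 after the start, outside the bases shown. Of all 32851 RefSeq windows of 300 bases (250 before the start and 50 after it), 28.3% held it. The interferon element began 40 bases before the start of Myd88, occurred in 1 of the 2 windows of Tlr6 as a pair of overlapping matches, and was held by 3.44% of all windows. The NF-kB element began 211 bases before the start of Tlr3 and was held by 1.63% of all windows. These are matches of letters in fixed windows and say nothing about binding.

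Libraries held 28857739 to 42825246 reads, so that a level of 1 CPM (reads relative to the scaled library size) rested on 28.1 to 46.9 reads. Mature fibre markers, Ckm and Mylpf among them, had RNA in every group, as the tissue label requires, at a summed level of 56398 to 166094 CPM per library. At day 3 the mitochondrial share of reads was 4.80 to 4.83% with anti-miR-106b and 7.54 to 7.76% with scrambled, and 35.7% of all tested genes differed between the arms. Of 14 macrophage markers 8 were higher with anti-miR-106b at day 3 and none lower, where 16.3% of all tested genes were higher and 19.4% lower. In each arm 14 of 14 were lower at day 7 than at day 3, as were 40.8% of all tested genes with anti-miR-106b and 35.3% with scrambled. The summed level of the 14 markers was 469 to 712 CPM in anti-miR-106b and 439 to 683 CPM in scrambled muscles at day 7, against 4725 to 5148 CPM and 3382 to 3445 CPM at day 3. None of the 14 was at 0 in any group. Markers of fibres moved the other way: 7 of 8 were lower with anti-miR-106b at day 3, and between the days 7 of 8 rose with anti-miR-106b (median 1.41) and 8 of 8 with scrambled (median 0.85). Of all tested genes 37.9% rose between the days with anti-miR-106b and 32.9% with scrambled. The mitochondrial share at day 7 was 9.94 to 10.7% with anti-miR-106b and 8.18 to 10.5% with scrambled. How much these cell type markers account for the levels below was not tested, and their values are given beside the results.

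All 10 members had RNA in every library. Per length of exon (CPM per kilobase of the gene's merged exons, the only scale here on which levels of different genes can be compared), Myd88 was the most abundant member in each of the 4 groups. Its mean was 4.07 CPM per kilobase in anti-miR-106b and 4.01 in scrambled muscles at day 7, against 12.9 and 8.55 at day 3. At day 7 the highest receptor was Tlr2, at 1.41 CPM per kilobase in anti-miR-106b and 1.28 in scrambled muscles, and the next was Tlr4, at 1.07 and 0.945. Tlr8 (0.246 and 0.211) and Tlr9 (0.202 and 0.184) were the lowest, and their libraries overlapped with each other in both arms. The other 5 receptors lay between 0.521 and 0.916 CPM per kilobase. In scrambled muscles the libraries of each receptor from Tlr2 to Tlr13 overlapped with those of the next one in rank, so that order is not settled. With anti-miR-106b, Tlr2, Tlr4 and Tlr7 stood apart in this order, as did Tlr3 and Tlr6, and the other neighbours overlapped.

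At day 3 the order was another one, with an upper set of 4 receptors and a lower set of 5. On the same scale Tlr13 led with 8.87 CPM per kilobase in anti-miR-106b and 6.07 in scrambled muscles, followed by Tlr7 (7.38 and 5.40), Tlr2 (7.07 and 4.71) and Tlr1 (6.55 and 4.46). Tlr6, Tlr8, Tlr4, Tlr9 and Tlr3 lay between 1.91 and 2.56 CPM per kilobase in anti-miR-106b and between 1.48 and 2.34 in scrambled muscles. Libraries of neighbouring receptors overlapped inside the lower set, except between Tlr4 and Tlr6 in scrambled muscles, while Tlr1 stood clear of the next receptor in both arms. Tlr13, the leading receptor of day 3, had been at 0.607 CPM per kilobase in anti-miR-106b and 0.527 in scrambled muscles at day 7, below Tlr2, Tlr4, Tlr7, Tlr3 and Tlr6.

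**Figure D1:**
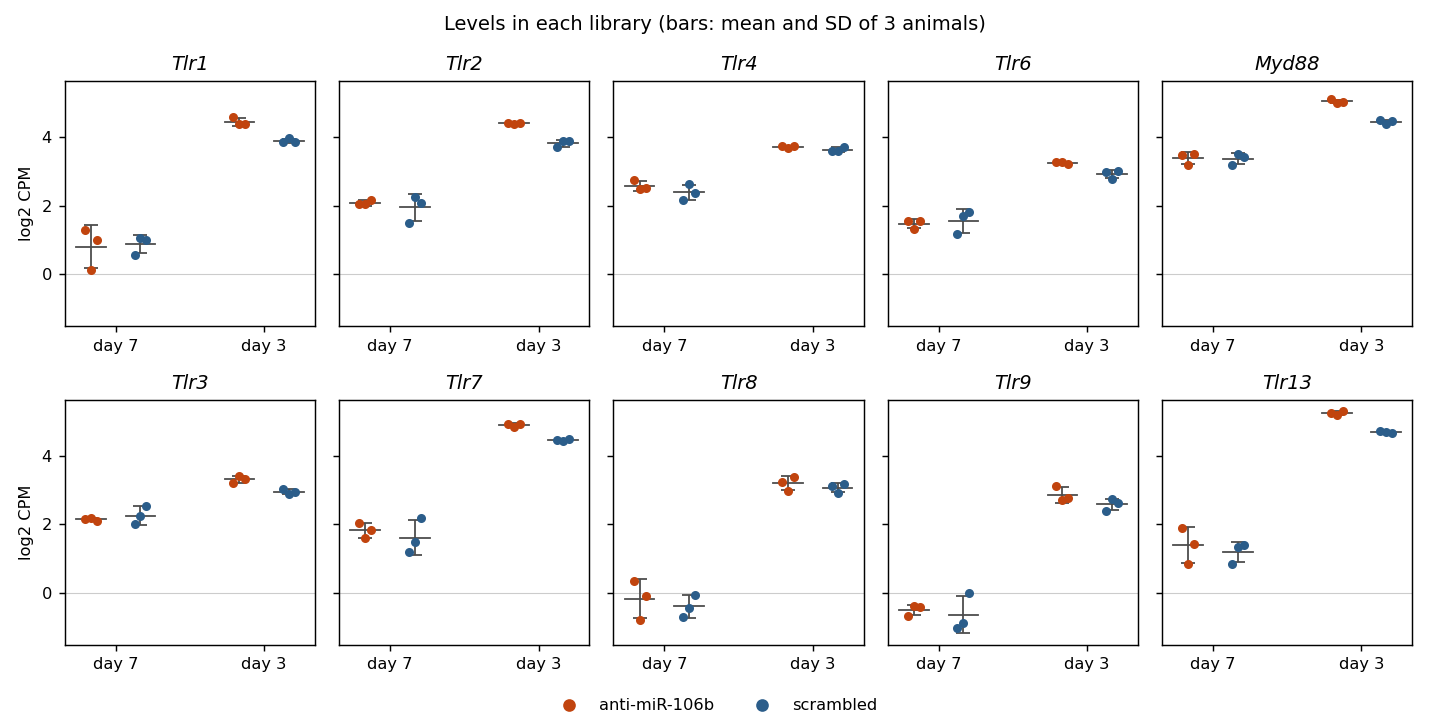
Level of each member in log2 CPM (y axis) in the 12 libraries, by day (x axis), day 7 left of day 3, with the 3 anti-miR-106b libraries left of the 3 scrambled ones and bars for mean and SD. All day 7 points lie below all day 3 points of the same gene and arm, with the deepest levels in Tlr8 and Tlr9, down to -0.79 and -1.03 log2 CPM.

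Between day 3 and day 7 every member fell, in muscles with anti-miR-106b as in muscles with scrambled. All 10 of 10 members passed in limma as lower at day 7 in each arm, where 40.8% of all tested genes were lower with anti-miR-106b and 35.3% with scrambled. No library of day 7 reached a library of day 3 for any member in either arm, which held in the lower direction for 41.7% of all tested genes with anti-miR-106b and 37.5% with scrambled. The members' median log2 fold change was -2.71 with anti-miR-106b and -2.37 with scrambled, beside -0.02 and -0.00 for all tested genes. The fall was at least 2-fold in 10 members with anti-miR-106b and 9 with scrambled, which held with a passing test for 20.7% and 14.4% of all genes. The falls were unequal among the members, from 14.6-fold for Tlr13 to 2.21-fold for Tlr4 with anti-miR-106b, and from 11.5-fold for Tlr13 to 1.62-fold for Tlr3 with scrambled. All 10 had passed the filter on low values, 8 of them also on day 7 libraries alone: Tlr8 reached 1 CPM in 1 of the 6 day 7 libraries and Tlr9 in 0 of them. Tlr8 and Tlr9 were therefore tested only because of their day 3 libraries. The counts and medians above include them, but their passing as lower adds nothing to their levels.

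Tlr13 (ENSMUSG00000033777.4, chrX:106143204-106160493, plus strand) fell most. With anti-miR-106b it had 1.88, 0.84 and 1.43 log2 CPM at day 7, against 5.25, 5.20 and 5.32 log2 CPM at day 3. With scrambled it had 0.84, 1.33 and 1.38 log2 CPM at day 7, against 4.74, 4.70 and 4.68 log2 CPM at day 3. The day 7 libraries lay far below in both arms and spread more widely than the day 3 ones. This gave a log2 fold change of -3.87 ± 0.20 (SE) with anti-miR-106b and -3.52 ± 0.20 with scrambled, with adjusted p of 1.28e-09 and 1.64e-08 in limma. Tlr7 (ENSMUSG00000044583.13, chrX:167304929-167330558, minus strand) fell by 3.10 on the log2 scale with anti-miR-106b and by 2.85 with scrambled, to means of 1.82 and 1.61 log2 CPM at day 7, against 4.91 and 4.46 log2 CPM at day 3. Tlr7 and Tlr8 are neighbours on the X chromosome and both bind RNA. Tlr8 (ENSMUSG00000040522.5, chrX:167242696-167264329, minus strand) had log2 fold changes of -3.38 with anti-miR-106b and -3.47 with scrambled. Its neighbour in rank, the CpG receptor Tlr9 (ENSMUSG00000045322.10, chr9:106222598-106226883, plus strand), had -3.37 and -3.22. Few reads stood behind both at day 7. Tlr8 had 16 to 39 reads per library at day 7, against 273 to 442 at day 3, and Tlr9 had 16 to 31 at day 7, against 201 to 410 at day 3.

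The remaining endosomal receptor, Tlr3 (ENSMUSG00000031639.12, chr8:45395665-45411080, minus strand), behaved differently from the other 4 in size. It had 2.16, 2.18 and 2.09 log2 CPM at day 7, against 3.21, 3.41 and 3.31 log2 CPM at day 3, with anti-miR-106b. With scrambled it had 1.99, 2.24 and 2.53 log2 CPM at day 7, against 3.02, 2.88 and 2.95 log2 CPM at day 3. The days were apart in both arms, but by about 1 unit or less. Its log2 fold change was -1.17 (95% interval -1.43 to -0.91) with anti-miR-106b and -0.70 (-0.96 to -0.44) with scrambled. The shallowest fall of the other endosomal receptors was that of Tlr7, with intervals of -3.50 to -2.69 and -3.26 to -2.45, which do not reach those of Tlr3. An antisense gene, Gm45542, shares 381 exon bases with Tlr3, and the sources used here do not state whether reads were counted by strand.

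The surface receptors also fell unequally, with log2 fold changes from -3.65 to -1.15 with anti-miR-106b and from -3.03 to -1.24 with scrambled. The endosomal range was wider with scrambled, from -3.52 to -0.70. Tlr1 (ENSMUSG00000044827.10, chr5:64924679-64933563, minus strand) had 1.30, 0.10 and 1.00 log2 CPM at day 7, against 4.58, 4.38 and 4.40 log2 CPM at day 3, with anti-miR-106b. With scrambled it had 0.57, 1.06 and 0.98 log2 CPM at day 7, against 3.87, 3.97 and 3.86 log2 CPM at day 3. Its fall of 3.65 on the log2 scale with anti-miR-106b and 3.03 with scrambled was of the size of the endosomal falls. Tlr6 (ENSMUSG00000051498.6, chr5:64952031-64960097, minus strand), the other partner of Tlr2, fell by 1.78 and by 1.37, with intervals of -2.11 to -1.46 and -1.69 to -1.04 that stay clear of those of Tlr1 (-4.15 to -3.16 and -3.53 to -2.53). Tlr1 and Tlr6 are close copies in neighbouring positions: 13.6% of the 50-base stretches of Tlr1 transcripts also occur in Tlr6, and 12.3% of those of Tlr6 in Tlr1, so part of their reads could be exchanged or dropped. Tlr2 (ENSMUSG00000027995.10, chr3:83836272-83841767, minus strand), which both partners need, lay between them and fell by 2.33 and by 1.88.

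Tlr4 (ENSMUSG00000039005.13, chr4:66827584-66930284, plus strand) fell least of the surface receptors. It had 2.74, 2.47 and 2.51 log2 CPM at day 7, against 3.73, 3.68 and 3.75 log2 CPM at day 3, with anti-miR-106b. With scrambled it had 2.17, 2.62 and 2.38 log2 CPM at day 7, against 3.59, 3.60 and 3.72 log2 CPM at day 3. The days were apart in both arms by roughly a doubling. The change came to -1.15 ± 0.11 log2 units (SE) with anti-miR-106b and -1.24 ± 0.11 with scrambled. Tlr4 and Tlr8 were the 2 members with the numerically smaller fall in the anti-miR-106b arm, and neither difference between arms passed the test given further on. As a class, surface receptors had a median of -2.06 with anti-miR-106b and -1.62 with scrambled, and endosomal receptors a median of -3.37 and -3.22. In both arms the endosomal median was the value of Tlr9, which reached 1 CPM in 0 of the day 7 libraries. It was tested only because of its day 3 libraries, so no difference between the classes can be drawn from these medians. Tlr1 fell like most endosomal receptors. Tlr3 fell like Tlr4 with anti-miR-106b, and less than every surface receptor with scrambled. With 4 and 5 genes, the 2 classes overlapped in the size of their falls.

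**Figure D2:**
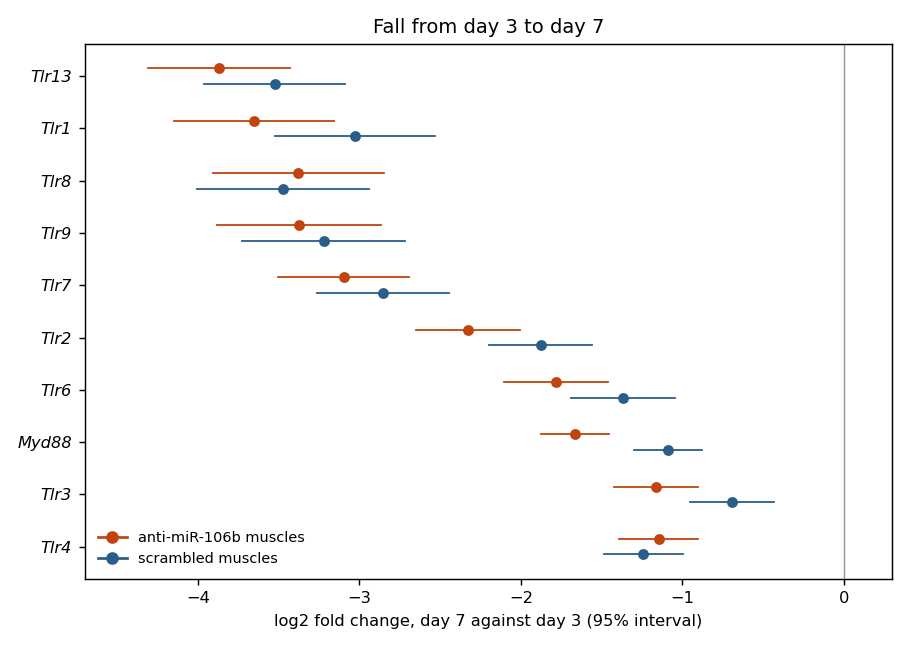
Log2 fold change of each member at day 7 against day 3 (x axis) with its 95% interval from limma, anti-miR-106b muscles above scrambled muscles for each gene. Tlr13, Tlr1, Tlr8, Tlr9 and Tlr7 fell by 2.85 or more in either arm, and the other 5 members by 2.33 or less.

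The adaptor Myd88 (ENSMUSG00000032508.8, chr9:119335934-119341411, minus strand) had 3.48, 3.19 and 3.50 log2 CPM at day 7, against 5.11, 5.01 and 5.04 log2 CPM at day 3, with anti-miR-106b. With scrambled it had 3.19, 3.51 and 3.41 log2 CPM at day 7, against 4.51, 4.40 and 4.47 log2 CPM at day 3. The day 7 arms overlapped and the day 3 arms did not. From day 3 to day 7 it fell by 1.66 on the log2 scale with anti-miR-106b and by 1.09 with scrambled (SE 0.10 each). With anti-miR-106b its interval (-1.87 to -1.45) overlapped that of 1 receptor, Tlr6, and with scrambled (-1.30 to -0.88) it overlapped those of Tlr6, Tlr4 and Tlr3. On its opposite strand the gene Acaa1a shares 290 exon bases with it.

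The falls can be set beside the macrophage markers of the same libraries. The mean of the 14 markers was 4.37 ± 0.32 log2 CPM in anti-miR-106b and 4.32 ± 0.27 in scrambled muscles at day 7, against 7.17 ± 0.05 and 6.67 ± 0.02 at day 3 (SD, n = 3). Relative to this mean, 5 members were lower at day 7 than at day 3 and 5 were higher. Tlr13 stood at -2.98 ± 0.26 log2 units relative to the markers at day 7, against -1.91 ± 0.09 at day 3, with anti-miR-106b, and at -3.14 ± 0.06 against -1.96 ± 0.02 with scrambled. Tlr1, Tlr7 and Tlr8 were lower relative to the markers as well, with no overlap of the days in either arm. Tlr9 was lower by 0.58 log2 units with anti-miR-106b, where the days overlapped, and by 0.88 with scrambled, where they did not.

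In the other direction, Tlr3 stood at -2.23 ± 0.34 log2 units relative to the markers at day 7, against -3.86 ± 0.14 at day 3, with anti-miR-106b, and at -2.07 ± 0.08 against -3.72 ± 0.05 with scrambled. Tlr4 moved by 1.65 with anti-miR-106b and 1.10 with scrambled, Myd88 by 1.13 and 1.25, Tlr6 by 1.02 and 0.98, and Tlr2 by 0.47 in both arms. For these 5 members the days did not overlap in either arm. The markers are not a count of cells, so these values describe ratios of transcripts, which do not depend on how the libraries were scaled. Monocyte markers, a separate list of 6, were lower at day 7 in 6 of 6 cases in each arm, with medians of -3.32 with anti-miR-106b and -3.08 with scrambled. Of all tested genes 40.8% and 35.3% were lower. The lowest marker had 51 reads summed over the 3 anti-miR-106b libraries of day 7 and 48 over the 3 scrambled ones, where 1 CPM rested on 28.1 reads or more. A marker that low may have been tested only because of its day 3 libraries, so the full count says little.

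**Figure D3:**
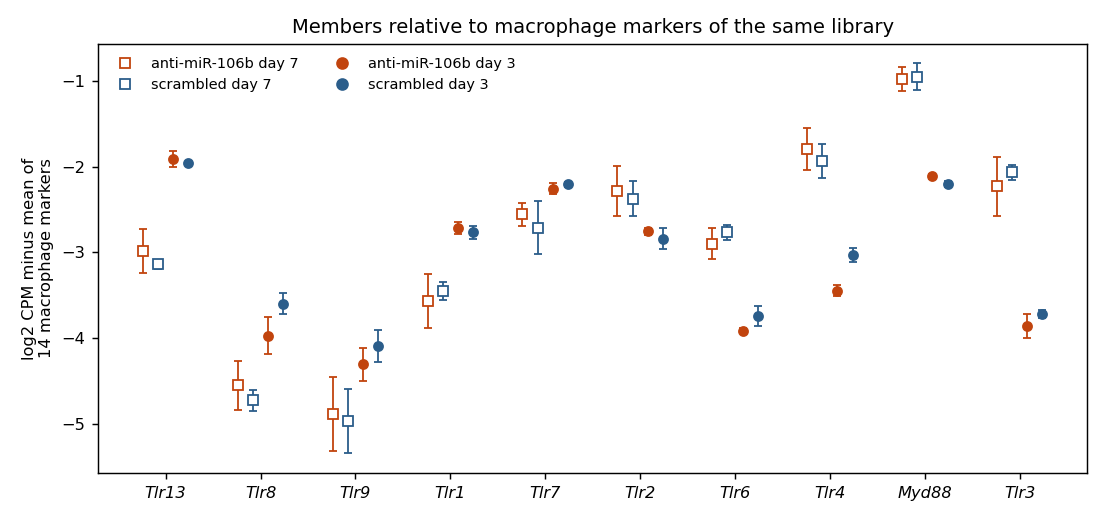
Level of each member minus the mean of 14 macrophage markers of the same library, in log2 units (y axis), as mean and SD of 3 animals for the 4 groups, ordered by the difference between the days in scrambled muscles. From Tlr13 to Tlr7 the open squares (day 7, left) lie below the filled circles (day 3, right), and from Tlr2 to Tlr3 above them.

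The makeup of the receptor RNA also differed between the days. The endosomal receptors made up 42.5 ± 1.50% of the summed receptor level (CPM per kilobase over all 9 receptors) at day 7 and 55.2 ± 1.04% at day 3 with anti-miR-106b, and 42.1 ± 4.53% at day 7 and 55.8 ± 0.803% at day 3 with scrambled (SD, n = 3). The highest day 7 library had 46.6% and the lowest day 3 library 54.4%. Within the endosomal sum, Tlr3 held 30.7 ± 5.07% at day 7 and 8.37 ± 0.906% at day 3 with anti-miR-106b, and 35.4 ± 2.36% at day 7 and 8.72 ± 0.357% at day 3 with scrambled. Within the surface sum, Tlr4 held 28.5 ± 2.02% at day 7 and 12.8 ± 0.421% at day 3 with anti-miR-106b, and 26.5 ± 2.33% at day 7 and 16.6 ± 0.633% at day 3 with scrambled. Neither share overlapped between the days in any library. The sum itself was lower at day 7 in both classes, at 3.79 and 2.81 CPM per kilobase for surface and endosomal receptors at day 7, against 18.6 and 22.9 at day 3, with anti-miR-106b.

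**Figure D4:**
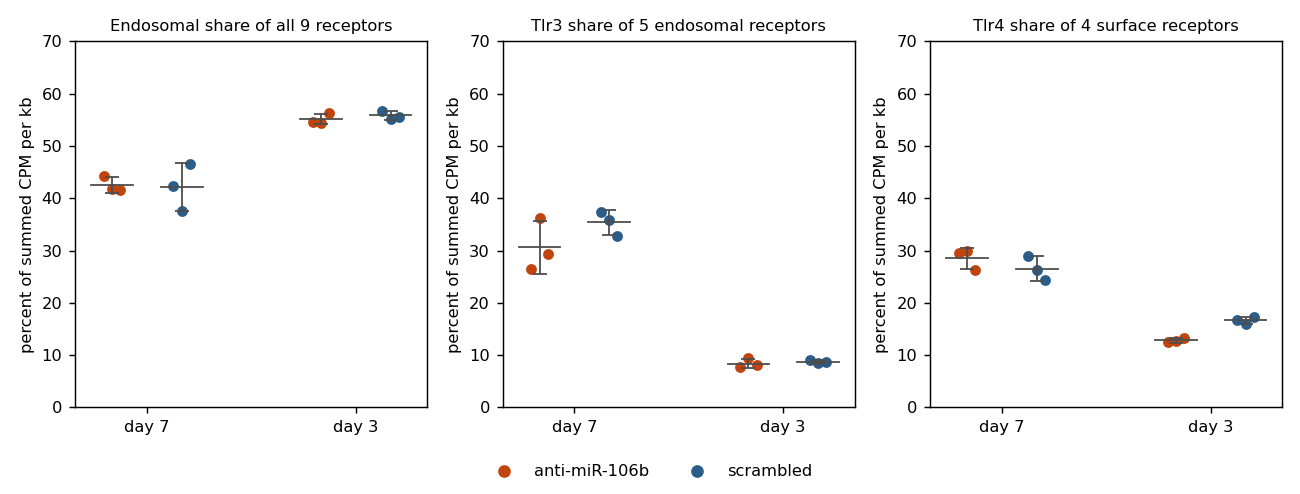
Endosomal share of the 9 receptors, Tlr3 share of the 5 endosomal receptors and Tlr4 share of the 4 surface receptors, each in percent of summed CPM per kilobase (y axis), by library, day 7 left of day 3 and anti-miR-106b left of scrambled, with bars for mean and SD. The endosomal share is 46.6% or less in day 7 libraries and 54.4% or more in day 3 libraries.

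The question of the study was what inhibition of miR-106b changes in regenerating muscle. At day 3, Myd88, Tlr2 and Tlr3 were higher with anti-miR-106b than with scrambled, by 1.51-fold, 1.50-fold and 1.28-fold. In limma 3 of 10 members passed, all of them higher, where 16.3% of all tested genes were higher and 19.4% lower. All 10 members had positive values, with a median log2 fold change of 0.41 beside 0.01 for all tested genes, and with no overlap between the arms in 7 of 10 (31.2% of all tested genes were higher without overlap). The macrophage markers had a median of 0.46 in the same comparison. When the 6 libraries of day 3 were fitted alone, 7 of 10 members passed, the same 7 whose arms did not overlap, and 27.3% of all tested genes were higher.

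Of the surface receptors, Tlr2 had 4.42, 4.40 and 4.41 log2 CPM with anti-miR-106b, against 3.70, 3.89 and 3.88 log2 CPM with scrambled. All 3 anti-miR-106b libraries were higher, and within 0.02 of each other. In limma the log2 fold change was 0.59 ± 0.15 (SE, adjusted p = 0.00805). Tlr1 had 4.58, 4.38 and 4.40 log2 CPM with anti-miR-106b, against 3.87, 3.97 and 3.86 with scrambled, a difference of 0.55 ± 0.23 that did not pass in limma (adjusted p = 0.0766). The SE here comes from 1 spread pooled over both days. The SD of Tlr1 was 0.11 with anti-miR-106b and 0.06 with scrambled at day 3, against 0.62 and 0.26 at day 7. Tlr6 had 3.28, 3.27 and 3.21 log2 CPM with anti-miR-106b, against 3.00, 2.78 and 3.00 with scrambled, a difference of 0.33 ± 0.15 (adjusted p = 0.103). In both partners of Tlr2 the arms did not overlap. Tlr4 had 3.73, 3.68 and 3.75 log2 CPM with anti-miR-106b, against 3.59, 3.60 and 3.72 with scrambled. Its arms overlapped, with a difference of 0.09 (95% interval -0.16 to 0.33, adjusted p = 0.577).

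Of the endosomal receptors, Tlr3 had 3.21, 3.41 and 3.31 log2 CPM with anti-miR-106b, against 3.02, 2.88 and 2.95 log2 CPM with scrambled. The arms were apart, by less than in Tlr2. The difference was 0.36 ± 0.12 log2 units (SE, adjusted p = 0.0323). This call was lost without replicate 2 or 3 of either arm: the adjusted p in limma was 0.120 and 0.0750 without those of anti-miR-106b, and 0.109 and 0.0811 without those of scrambled. Tlr13 (0.55 ± 0.20, adjusted p = 0.05002) lay just outside the threshold in limma and Tlr7 (0.45 ± 0.19, adjusted p = 0.0785) further out, both without overlap of the arms. Their SE also includes the wider day 7 spread: the SD of Tlr13 was 0.06 with anti-miR-106b and 0.03 with scrambled at day 3, against 0.53 and 0.30 at day 7. For Tlr7 it was 0.05 and 0.03 at day 3, against 0.22 and 0.51 at day 7. Tlr9 (0.29, 95% interval -0.22 to 0.79) and Tlr8 (0.13, -0.40 to 0.66) had overlapping arms and intervals wide enough to hold the difference seen for Tlr13.

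Myd88 had 5.11, 5.01 and 5.04 log2 CPM with anti-miR-106b, against 4.51, 4.40 and 4.47 log2 CPM with scrambled. The lowest anti-miR-106b library was above the highest scrambled one by more than the range of either arm. It differed by 0.59 ± 0.10 on the log2 scale (SE, adjusted p = 5.68e-04 in limma), above that of 94.0% of all tested genes. Relative to the macrophage markers of the same libraries, Myd88 was at -2.11 ± 0.03 with anti-miR-106b and -2.21 ± 0.03 with scrambled, a difference of 0.09 log2 units without overlap. On this relative scale Tlr2 differed by 0.08, Tlr1 by 0.05 and Tlr13 by 0.05, with overlapping arms. Tlr3 (-0.14), Tlr7 (-0.05) and Tlr9 (-0.22) had negative values with overlapping arms, so Tlr3 stood the other way from its call, and Tlr4 (-0.42), Tlr8 (-0.37) and Tlr6 (-0.17) were lower with anti-miR-106b without overlap.

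**Figure D5:**
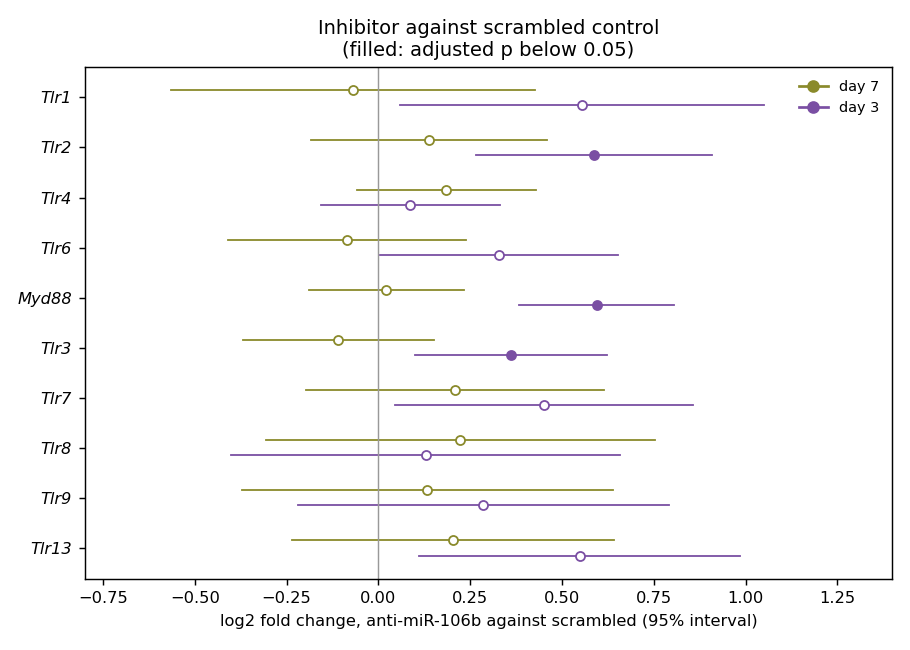
Log2 fold change of each member with anti-miR-106b against scrambled (x axis) and its 95% interval from limma, day 7 above day 3 for each gene, with filled points for an adjusted p below 0.05. The filled points are Myd88, Tlr2 and Tlr3 at day 3, and all 10 day 7 intervals include 0.

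At day 7 the arms overlapped for every member. In limma 0 of 10 members passed, where 9 of all tested genes (0.064%) did. At an unadjusted p below 0.05 the counts were 0 of the members and 1580 of all tested genes, and limma-voom on the reads recovered from the values also called 0 members. The overlap held in 10 of 10 members, while 5.18% of all tested genes were higher and 5.69% lower without overlap. Differences ran from -0.11 for Tlr3 to 0.22 for Tlr8, with a median of 0.14 beside 0.01 for all tested genes. Myd88 had 3.48, 3.19 and 3.50 log2 CPM with anti-miR-106b, against 3.19, 3.51 and 3.41 log2 CPM with scrambled. Its difference was 0.02 (95% interval -0.19 to 0.23), so a difference of the size seen at day 3 lies outside the interval. Tlr2 had 2.04, 2.04 and 2.18 log2 CPM with anti-miR-106b, against 1.51, 2.27 and 2.07 log2 CPM with scrambled. Its interval of -0.18 to 0.46 ended below the day 3 value, but it rests on 1 spread pooled over both days. The SD of Tlr2 was 0.08 with anti-miR-106b and 0.40 with scrambled at day 7, against 0.01 and 0.11 at day 3. The interval is therefore narrow for day 7 and does not exclude the day 3 value. For Tlr8 (-0.31 to 0.75), Tlr13 (-0.24 to 0.64) and Tlr9 (-0.37 to 0.64) the intervals still held their day 3 values. The same was true of Tlr7 (-0.20 to 0.61) and Tlr4 (-0.06 to 0.43). Replicate 1 of scrambled at day 7 was below its group mean in 10 of 10 members, by 0.33 on average, and replicate 3 above it in 9 of 10, by 0.25. The macrophage markers of this group spread over 439 to 683 CPM.

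The change of the inhibitor's effect between the days was tested directly. It passed for Myd88 alone of the 10 members, at -0.57 ± 0.14 on the log2 scale (SE, adjusted p = 0.0111 in limma), where 9.07% of all tested genes had a lower and 13.2% a higher effect at day 7. Tlr3 had -0.47 ± 0.17 (adjusted p = 0.0639), Tlr1 -0.62 ± 0.33 (0.187), Tlr2 -0.45 ± 0.21 (0.142) and Tlr6 -0.42 ± 0.21 (0.177). Tlr4 (0.10) and Tlr8 (0.09) were the members with positive values, and their intervals reached from -0.25 to 0.44 and from -0.66 to 0.84. The macrophage markers had a median of -0.49 in this test, with 2 of 14 lower. The test uses the same 12 libraries as the comparisons above and repeats, for Myd88, the larger fall in the anti-miR-106b arm. Without replicate 1 of scrambled at day 7, 4 of 10 members passed: Myd88, Tlr2, Tlr3 and Tlr6.

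The other genes of the pathway were taken from 11 lists of partners, signalling proteins, targets and ligands, of which 97 genes were tested. At day 3, 29 were higher with anti-miR-106b and 7 lower, with a median of 0.18, where 16.3% of all tested genes were higher and 19.4% lower. At day 7 limma called 0 of the 97. Between the days 17 rose and 70 fell with anti-miR-106b, and 9 rose and 67 fell with scrambled, where 37.9% of all tested genes rose and 40.8% fell with anti-miR-106b, and 32.9% rose and 35.3% fell with scrambled. The median of the lists was -0.99 and -0.91 in these comparisons. These counts and medians include genes that were tested only because of their day 3 libraries. Examples are Tnf, with day 7 means of -1.62 log2 CPM with anti-miR-106b and -1.34 with scrambled, and S100a8 (-2.12 and -1.42). A lower level at day 7 adds nothing for such genes, and they were not counted apart.

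Transcripts of proteins that carry endosomal receptors to their compartment and process them were higher with anti-miR-106b than with scrambled at day 3 in 6 of 7 cases, with a median of 0.42. Unc93b1, the chaperone that moves endosomal receptors out of the endoplasmic reticulum, was at 7.88 ± 0.10 log2 CPM with anti-miR-106b and 7.25 ± 0.03 with scrambled, a log2 fold change of 0.63 ± 0.14 (SE, adjusted p = 0.00351). Cnpy3 (0.42) and Hsp90b1 (0.24), which fold Toll-like receptors, and the protease Lgmn (0.48), which cleaves endosomal ones, were higher with anti-miR-106b as well. All 7 fell from day 3 to day 7 in both arms. Unc93b1 had -2.96 with anti-miR-106b and -2.23 with scrambled, and its inhibitor effect was smaller at day 7 (-0.73 ± 0.20, adjusted p = 0.0180). Of the surface co-receptors 0 of 6 passed at day 3, where Ly96 had 0.47 (adjusted p = 0.0583), Cd36 -0.30 (0.0612), Cd180 0.59 (0.113) and Cd14 0.41 (0.122). Between the days 1 of the 6 rose and 4 fell with anti-miR-106b, and 5 fell with scrambled. Cd36, a lipid receptor that works with Tlr2 and Tlr6, was the one that rose with anti-miR-106b (0.41), and it had -0.02 with scrambled (adjusted p = 0.916). At day 7 against day 3, Cd14, which hands lipopolysaccharide to Tlr4, had -2.58 with anti-miR-106b and -2.02 with scrambled, and Cd180, a relative of Tlr4 on B cells and myeloid cells, had -4.07 and -3.41, all of which passed.

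Among the other adaptors Tirap, which bridges Myd88 to Tlr2 and Tlr4, went against Myd88. It was at 3.00 ± 0.07 log2 CPM with anti-miR-106b and 3.39 ± 0.08 with scrambled at day 3, a difference of -0.39 ± 0.10 on the log2 scale (SE, adjusted p = 0.00727). It rose by 0.48 from day 3 to day 7 with anti-miR-106b, and had 0.07 (adjusted p = 0.557) with scrambled. Ticam1, the adaptor of Tlr3, had 0.35 at day 3 (adjusted p = 0.0617) and fell between the days, with -1.07 and -0.78. Kinases and ubiquitin ligases went both ways at day 3, with 3 of 17 higher and 4 lower, close to the shares over all tested genes. Irak4, the kinase that Myd88 recruits first (0.38), Ikbke (0.51) and Btk (0.47) were higher, and Map3k7 (-0.30), its partner Tab2 (-0.36), Traf3 (-0.23) and Traf6 (-0.25) were lower, Btk, Traf3 and Traf6 being named after their values were seen. Over time 7 of 17 rose and 7 fell with anti-miR-106b, 3 and 7 with scrambled, so the lists did not move in 1 direction: Map3k7 had 0.68 and 0.30, and Irak4 -1.39 and -0.91.

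The counts of this paragraph stand beside 16.3% of all tested genes higher with anti-miR-106b at day 3 and 19.4% lower. Of 12 transcription factors of the pathway 6 were higher at day 3, led by Irf7 (1.14) and Irf8 (0.69), and including Rela (0.38) and Irf3 (0.31). Negative regulators had 3 of 13 higher, not far from the share of all tested genes, with a median of 0.07. These were the inhibitory receptor Sigirr (0.64), Trafd1 (0.35) and Nfkbid (0.58). Target genes were taken as 2 lists. Of 9 tested NF-kB response genes Marcksl1 alone passed at day 3 (0.81 ± 0.23, adjusted p = 0.0139), and 7 more of that list, Il6 and Ptgs2 among them, were below the filter on low values. Of 11 interferon response genes 8 were higher, such as Isg15 (1.20), Ifit3 (1.07) and Ifit1 (0.95), with a median of 0.82. No test compared the 2 lists, and interferon response genes also answer to other sensors. Of 5 interleukin-1 family receptors 1 passed, Il1rl1, the receptor of interleukin-33, which was lower (-0.85 ± 0.21, adjusted p = 0.00595). Of 11 tested danger ligands the matrix proteins Tnc (1.11) and Bgn (0.68) were higher and Nampt (-0.37) was lower. The other 8 did not pass, and the median of the list was 0.04, so the list as a whole showed no rise.

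Of the mouse Toll-like receptors outside the 10 members, Tlr12 had 2.04, 1.81 and 2.15 log2 CPM with anti-miR-106b and 1.22, 0.90 and 1.18 with scrambled at day 3, a difference of 0.90 ± 0.43 that did not pass (adjusted p = 0.115). It had 3 to 11 reads per library at day 7, against 67 to 193 at day 3, and no day 7 library reached 1 CPM. It was therefore tested only because of its day 3 libraries, and its passing as lower in both arms adds nothing to these levels. The flagellin receptor Tlr5 did not pass in any of these comparisons, with -0.06 at day 7 against day 3 in anti-miR-106b and 0.19 in scrambled muscles (adjusted p = 0.853 and 0.530), and Tlr11 was below the filter.

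The genes whose levels followed each member most closely over the 12 libraries were found by Pearson's r, without a test, since day alone separates the libraries and any gene that fell steeply will score high. Pairs of members themselves had r of 0.928 to 0.997. For Tlr13 they were C3ar1 (r = 0.999), Ms4a6c and Myo1f, for Tlr1 Gm21188, Cd180 and Plcb2, for Tlr7 Nfam1, Abcc3 and Lpcat2, and for Tlr8 Plek, Itgb2 and Lilr4b, with C3ar1, Cd180, Plek and Itgb2 known from blood and myeloid cells. For the receptors with shallow falls they were Fam111a, Ggh and Slc41a2 for Tlr4, Ppfia4, Gm3788 and Map4k4 for Tlr6, and Ephb3, Adamts7 and Cabin1 for Tlr3. For Tlr2 they were Ctsh, Serp1 and Spg21, and for Tlr9 Rnase6 and Ptafr. Myd88 went with Tmsb4x (r = 0.999), Rpl3 and Ptma.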

How the data were processed

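RNA of 12 muscles was sequenced after extraction of total RNA on columns and preparation of Illumina TruSeq libraries, per the labels' protocols. The submitters' processing notes name, in no order, mm10 as the build, STAR and featureCounts without a version, limma 3.34.9 and edgeR 3.20.9, and Trim Galore 0.4.3.1 beside FastQC 0.72. Whether reads were counted by strand is not given in the sources used here. The authors deposited 1 table of log2 CPM values for 28116 genes by symbol. Its steps gave whole reads for 100% of the values (within 0.001), with a prior of 0.25 reads, and the reads quoted as depth were recovered this way. One label text speaks of 5 days where the sample labels say 3 or 7, and the sample labels were followed.

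Groups were compared with limma 3.58.1 (R 4.3.3) on the deposited log2 CPM values, with 1 mean per group over the 12 libraries, a prior variance that follows mean expression, and Benjamini-Hochberg adjustment over the 14063 genes at 1 CPM or more in at least 3 libraries. The threshold was an adjusted p of 0.05, two-sided. Permuting 3 against 3 libraries exactly gives no p below 0.1, so no such test was run. Fold changes are on the log2 CPM scale. Levels per kilobase used the merged exon length in GENCODE M21 (GRCm38), which also gave gene positions, and sequences came from RefSeq (GRCm38.p6). Genes of the pathway lists were named by the 4 smallest p at day 3 in each list, members always, and other genes are marked as chosen later. For each member the 3 genes with the highest r were named. A few genes that these rules pick are not reported here. The members and lists were chosen with earlier results of these data known. Since the deposited unit is no count, no count model was the main test. Alternatives covered the filter, the constant added, the scaling, the samples fitted, the replicate number, and each library left out. A further pair, limma-voom on recovered reads and library weights, was chosen after seeing the data.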

Additional observations from a re-analysis of the deposited data

Results flagged for a closer look

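The effect of anti-miR-106b on Myd88, the shared adaptor, differed between the days. Its effect at day 7 minus that at day 3 was -0.57 ± 0.14 on the log2 scale (SE, adjusted p = 0.0111 in limma), with 95% limits of -0.87 and -0.28. Myd88 was 0.02 higher with anti-miR-106b at day 7, where the arms overlapped, and 0.59 higher at day 3, where all 3 anti-miR-106b libraries lay above all 3 scrambled ones. Over the alternatives the value ran from -0.79 to -0.47 and the adjusted p from 3.57e-04 to 0.0339. The macrophage markers had a median of -0.49 in the same test, and their part in the result was not tested.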

How the results depend on the processing

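All 10 members were lower at day 7 than at day 3 in each arm under every alternative run, and 0 members passed between the arms at day 7 under any of them. Tlr8 and Tlr9 had passed the filter only because of their day 3 libraries, so their being lower at day 7 adds nothing to this count. At day 3, where 3 members passed, 6 passed with 1 CPM added or quantile normalization, and 7 with 5 CPM added, with the day 3 groups alone, with total-count scaling, with limma-voom or with library weights. Leaving out 1 library gave 2 to 6 members: the highest, 6, came without replicate 1 of scrambled at day 7, and 5 members passed without its replicate 3, or when replicate 1 or 2 of the inhibitor at day 7 was left out. The Tlr3 call was also lost without a filter on low values (adjusted p = 0.0549 in limma). For the change of the inhibitor's effect, 1 member passed, against 2 with 1 CPM added, 5 with 5 CPM added, 5 with library weights and 3 with total-count scaling. With 1 library left out it was 1 to 4, the highest without replicate 1 of scrambled at day 7. The cause of these changes was not tested.

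Total-count scaling shifted the median of all genes by 0.20 at day 3 (5165 genes higher and 1392 lower, against 2296 and 2726) and by -0.65 with anti-miR-106b and -0.41 with scrambled between the days. The members' median at day 3 was 0.60 under this scaling, against that shift of 0.20. Over all genes, day 3 calls numbered 5022, against 8820 with library weights and 3488 to 5673 with 1 library left out. At day 7 they numbered 9, against 20 at a filter of 0.5 CPM, 15 with no filter, 35 with 1 CPM added, 46 with 5 CPM added, 2 with the day 7 groups alone, 28 with total-count scaling, 17 with quantile normalization, 58 with library weights, and 0 to 457 with 1 library left out, the last without scrambled day 7 replicate 1. The effect's change was called for 3134 genes, against 5334 with library weights and 2063 to 4555 with 1 library left out.

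Deviations from the group means showed little correlation between same-numbered libraries, from -0.18 to 0.14. This covers the replicate numbers only and cannot tell whether 1 animal gave muscles to more than 1 group under different numbers. With the replicate number as a block, the members called were 3, 0, 1, 10 and 10 in the 5 comparisons, as without it, and the genes called at day 7 were 23.

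Values that changed sign had not passed. At day 7 these were Tlr1 with quantile normalization (0.0048), Tlr2 with library weights (-0.065), and Myd88 with total-count scaling (-0.0071) or library weights (-0.073). Among the changes of the effect they were Tlr4 with total-count scaling (-0.12) and Tlr8 with 1 CPM added (-0.0029), 5 CPM added (-0.045) or total-count scaling (-0.12). With 1 library left out, day 7 values ran from -0.32 to 0.28 for Tlr1, -0.084 to 0.30 for Tlr2, -0.29 to 0.038 for Tlr6, -0.24 to 0.025 for Tlr3, -0.0051 to 0.49 for Tlr7, -0.039 to 0.53 for Tlr8, -0.061 to 0.45 for Tlr9, -0.047 to 0.48 for Tlr13 and -0.068 to 0.12 for Myd88. The effect's change ran from -0.014 to 0.21 for Tlr4, -0.46 to 0.042 for Tlr7, -0.17 to 0.40 for Tlr8 and -0.35 to 0.16 for Tlr9. The planned count models (edgeR and DESeq2) were not run, since the deposited unit is log2 CPM. Depth limits Tlr8 and Tlr9 at day 7 most, at 39 reads or fewer per library.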

Other observations

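Other cells that can carry these receptors were followed by their own markers. At day 3, where 16.3% of all tested genes were higher and 19.4% lower, 2 of 4 plasmacytoid dendritic cell markers were higher with anti-miR-106b (median 0.45), as were 1 of 6 monocyte markers (0.24), 2 of 4 T and NK cell markers (0.85) and the 1 tested B cell marker, Cd79b (0.74). Of 8 conventional dendritic cell markers (median -0.01) and 4 neutrophil markers (0.71), 0 passed in limma. Satellite cell and myoblast markers were higher in 4 of 6 cases, endothelial markers in 2 of 6, and fibro-adipogenic progenitor markers in 2 of 6 with 1 lower. At day 7, 0 markers of these lists passed. Between the days, where 37.9% of all tested genes rose and 40.8% fell with anti-miR-106b, and 32.9% rose and 35.3% fell with scrambled, conventional dendritic cell markers were lower at day 7 in 6 of 8 cases with anti-miR-106b and 7 of 8 with scrambled, and plasmacytoid ones in 4 of 4 in each arm. Ccr7 of the conventional list had day 7 means of -1.53 log2 CPM with anti-miR-106b and -0.97 with scrambled, and was tested only because of its day 3 libraries. Endothelial markers rose in 3 of 6 cases and fell in 1 with anti-miR-106b, and rose in 5 of 6 with scrambled. How far any of these lists accounts for a receptor's level was not tested.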
